A study of Mus musculus with 31 samples.

Results

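Pegylated interferon alpha was added to azacytidine in mice with JAK2-mutant blood cells and intact Dnmt3a, and the RNA of their long-term haematopoietic stem cells (LT-HSCs) was compared with that of stem cells from mice given azacytidine alone. The comparison was taken from the treatment and genotype labels and rests on 8 of the 31 libraries of the series, 4 labelled VF COMBO and 4 labelled VF AZA. VF stands for marrow of the genotype SclCre;FF1;GFP, which carries a human JAK2-V617F transgene switched on by a Cre driven from the Scl promoter and a GFP reporter. It was transplanted into wild-type mice together with a 10-fold excess of wild-type marrow, so the stem-cell gate could hold cells of both origins, and the labels do not say whether GFP was part of the sort. Treatment began 4 weeks after transplant and lasted 8 weeks. VF COMBO mice received pegylated interferon alpha at 25 µg/kg each week and 5-azacytidine at 2 mg/kg each day, and VF AZA mice received the same daily azacytidine without interferon. Libraries of the other groups were used beside them, namely 4 VF IFN (interferon alone), 4 VF V (vehicle), 3 VFDM COMBO, 4 VFDM AZA, 4 VFDM IFN and 4 VFDM V. VFDM marrow carries a deletion of Dnmt3a in addition (SclCre;FF1;Dnmt3Δ/Δ;GFP). LT-HSCs were sorted as lineage-negative, Kit-positive, Sca1-positive cells with CD150 and without CD48, and RNA was read with a SMART-based stranded kit. The labels do not say that each library came from a separate animal, so p-values cover only the variation seen among the libraries, which may be technical. That variation was estimated from all 31 libraries together, so p-values and standard errors do not measure the spread of the 8 compared libraries alone.

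Type I interferon binds a receptor of the subunits Ifnar1 and Ifnar2, whose kinases Jak1 and Tyk2 phosphorylate Stat2 among other proteins. Stat2 and Irf9 are subunits of a factor that binds interferon-stimulated response elements in the promoters of antiviral genes. In haematopoietic stem cells interferon is known for drawing dormant cells into cycle and for raising the surface antigen Sca1, and in myeloproliferative neoplasms it is used to reduce the JAK2-mutant clone. Azacytidine is a nucleoside that is built into nucleic acids and traps DNA methyltransferases.

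The promoters of 4 genes that rose in VF COMBO are shown because they carry the letters of the response element, and the values of these genes follow further on. They are the genes with the smallest p among the interferon-list rises whose window holds at least 2 matches. Each is the RefSeq window of GRCm38.p6 from 250 bases before to 50 bases after a transcript start, written along the gene's own strand, and capitals mark matches to GAAA, any 2 bases, GAAA, searched on both strands with overlapping matches merged.
Ddx60 (chr8:61927837-61928136, plus strand): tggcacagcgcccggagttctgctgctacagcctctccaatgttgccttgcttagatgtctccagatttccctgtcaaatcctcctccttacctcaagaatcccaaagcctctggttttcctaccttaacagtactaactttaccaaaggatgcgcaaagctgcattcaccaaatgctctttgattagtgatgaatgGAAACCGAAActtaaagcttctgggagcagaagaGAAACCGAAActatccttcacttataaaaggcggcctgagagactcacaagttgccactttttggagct
Oas1g (chr5:120887564-120887863, minus strand): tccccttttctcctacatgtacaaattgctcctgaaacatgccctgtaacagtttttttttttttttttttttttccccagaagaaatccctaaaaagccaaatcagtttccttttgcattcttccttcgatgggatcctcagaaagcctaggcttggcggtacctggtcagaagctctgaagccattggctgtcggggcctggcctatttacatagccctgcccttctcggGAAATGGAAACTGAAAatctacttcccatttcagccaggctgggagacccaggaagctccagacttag
Isg15 (chr4:156200769-156201068, minus strand): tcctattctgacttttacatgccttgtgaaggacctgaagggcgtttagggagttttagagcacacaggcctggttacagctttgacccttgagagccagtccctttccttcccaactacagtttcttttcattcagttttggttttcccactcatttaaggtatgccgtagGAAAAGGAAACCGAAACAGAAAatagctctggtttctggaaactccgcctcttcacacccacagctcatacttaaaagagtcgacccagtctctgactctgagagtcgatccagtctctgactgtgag
Ifit1 (chr19:34640639-34640938, plus strand): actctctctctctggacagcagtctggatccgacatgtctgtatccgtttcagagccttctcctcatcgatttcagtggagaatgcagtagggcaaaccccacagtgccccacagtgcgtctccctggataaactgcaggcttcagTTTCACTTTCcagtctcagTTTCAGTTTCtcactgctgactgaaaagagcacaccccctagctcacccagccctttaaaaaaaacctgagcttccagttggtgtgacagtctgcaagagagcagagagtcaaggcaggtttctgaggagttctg
The same letters stood in the windows of 23 of the 46 interferon-list rises that have a promoter in the RefSeq table (50%) and in 40 of 110 interferon-list genes that did not pass (36.4%). They stood in 12 of the 120 other rises (10.0%), in 5 of the 115 falls (4.35%) and in 1079 of all 27025 genes of the table (3.99%). A match is a description of the letters and was not tested as a site.

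The 8 libraries held 20586606 to 32667491 counts in VF COMBO and 21587479 to 50411611 in VF AZA, with 17087 to 23834 and 17942 to 26455 rows detected. Fewer than 20000 rows were detected in VF COMBO libraries 1, 2 and 3 and in VF AZA libraries 2 and 3. Leaving these libraries out, as is done below, keeps VF COMBO library 4 alone against VF AZA libraries 1 and 4. In that fit an effect of low detection cannot be told apart from the loss of libraries. Small and ribosomal RNAs took 5.48% to 8.09% of VF COMBO counts and 5.02% to 8.0% of VF AZA counts. They took 8.49% to 37.49% of VF V counts, which enter the comparison with interferon alone. Of 22172 rows tested with edgeR's quasi-likelihood model, 235 were higher in VF COMBO (1.06%) and 176 lower (0.794%) at a Benjamini-Hochberg adjusted p under 0.05, the threshold for every call below. The median log2 fold change over all rows was -0.03. The libraries of both groups did not overlap in 955 rows (4.31%), 390 of them higher (1.76%) and 565 lower (2.55%) in VF COMBO. The leading rises and falls named below were taken only from called rows without overlap. In those genes the lack of overlap was a rule of choice and adds no support. The count of 411 called rows was 805, 247, 218 and 1017 without VF COMBO library 1, 2, 3 or 4, 267 without VF AZA library 2, and 45 without the libraries in which fewer than 20000 rows were detected. Neither mouse Jak2 (181 ± 15 against 145 ± 14.8 CPM, SD, n = 4 each, adjusted p = 0.15) nor Dnmt3a (153 ± 39.2 against 198 ± 21.7 CPM, adjusted p = 0.377) passed the test, and nor did any of the 5 transgene rows.

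The rises were led by the interferon response. Across 15 lists that hold 199 tested interferon genes, 64 were higher in VF COMBO, 0 were lower and 135 did not pass, with a median log2 fold change of 0.52. These 64 made up 27.2% of all 235 rises. At an unadjusted p under 0.05, 7 of the 199 were lower, and DESeq2 called 2 lower and limma voom 0. The count of 64 ran from 57 to 68 when any 1 of the 8 libraries was left out, and it was 35 in a fit of the 8 libraries alone and 27 without the libraries in which fewer than 20000 rows were detected. Levels below are CPM, read counts scaled to library size, and changes are log2 fold changes of VF COMBO over VF AZA with their SE. In bulk RNA, more cells of a kind and more RNA per cell cannot be told apart.

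**Figure D1:**
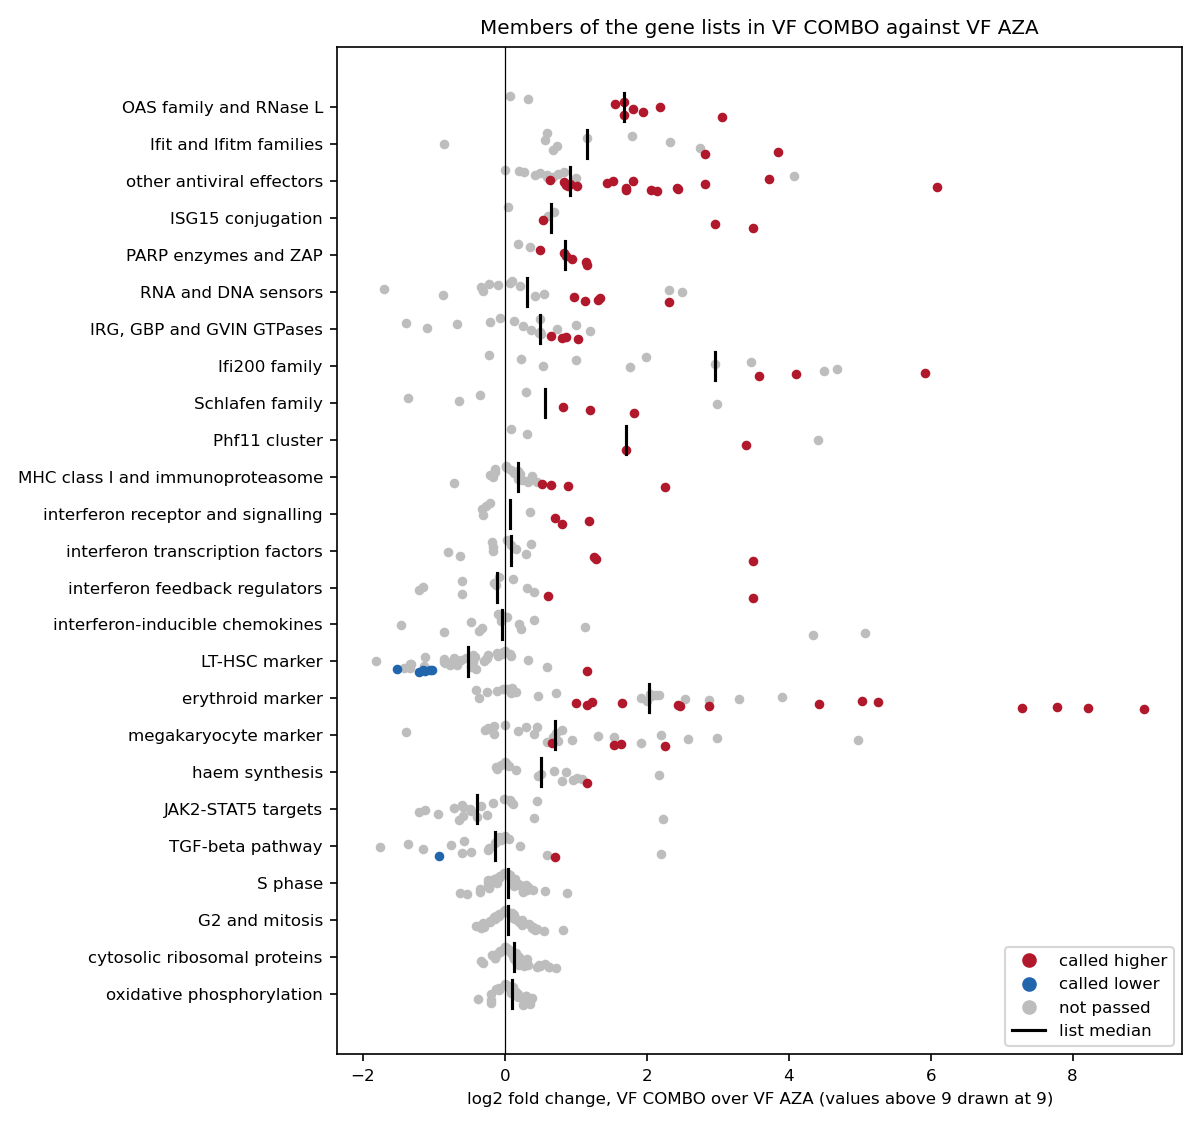
Log2 fold change of VF COMBO over VF AZA (x axis) for each tested member of 25 gene lists (y axis), red where called higher, blue where called lower and grey where the test was not passed, with a black bar at the list median. Interferon lists at the top hold red points only among their calls, the LT-HSC list has 6 blue points and 1 red, and the erythroid list has 14 red points, 1 of which (Tspo2, at 0 in VF AZA) is drawn at the edge.

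Signal transduction and transcription came first in the pathway. Both Irf9 and Stat2, subunits of the factor that binds response elements, rose. Irf9 held 102, 136, 122 and 120 CPM in VF COMBO libraries 1 to 4, against 67.3, 35.1, 35.3 and 72.4 CPM in VF AZA (1.19 ± 0.18, adjusted p = 7.18e-05). Every VF COMBO library was above every VF AZA library in Irf9. Stat2 averaged 77.0 ± 13.2 CPM in VF COMBO and 47.3 ± 10.2 CPM in VF AZA (SD, n = 4 each), with overlapping libraries and a change of 0.70 ± 0.17 (adjusted p = 0.0231). The Stat2 call ended without VF COMBO library 2 or VF AZA library 1, 2 or 4, the highest adjusted p being 0.0873. Neither Jak1 nor the receptor subunits passed. Jak1 averaged 280 ± 10.6 CPM in VF COMBO and 347 ± 45.1 CPM in VF AZA (-0.31 ± 0.10, adjusted p = 0.093), Ifnar1 had 48.9 to 69.5 against 61.1 to 90.1 CPM, and Ifnar2 had 35.3 to 51.6 against 46.7 to 74.01 CPM.

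Irf7, the transcription factor that amplifies interferon output, held 155, 164, 108 and 139 CPM in VF COMBO and 14.1, 3.34, 15.9 and 16.6 CPM in VF AZA. The groups were far apart, the lowest VF COMBO library being above 100 CPM and the highest VF AZA library below 20, for a mean 11.3-fold higher (3.5 ± 0.32, adjusted p = 2.35e-08). Irf7 stands in a list of 13 tested interferon transcription factors and related genes, which does not hold Irf9 and Stat2. In it 2 others rose, the nuclear-body protein Sp100 (220 ± 60.7 against 90.2 ± 15.3 CPM, 1.28 ± 0.15) and Ifi35 (44.2 ± 8.11 against 18.5 ± 7.65 CPM, 1.25 ± 0.25). The median of that list was 0.08. Usp18, which removes ISG15 from proteins and dampens signalling at the receptor, had the smallest p of the whole comparison. It held 65.8, 86.3, 81.5 and 85.8 CPM in VF COMBO, against 8.56, 2.94, 6.66 and 9.98 CPM in VF AZA, a mean 11.3-fold higher (3.5 ± 0.27, adjusted p = 2.6e-10). Among 12 feedback regulators Usp18 was joined by the ubiquitin ligase Trim21 alone (59.6 ± 11.3 against 39.1 ± 5.95 CPM, adjusted p = 0.0458), a call that ended without any 1 of VF COMBO libraries 1 to 3 or VF AZA libraries 1 and 4 (highest adjusted p = 0.109). The median of the feedback list was -0.11.

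**Figure D2:**
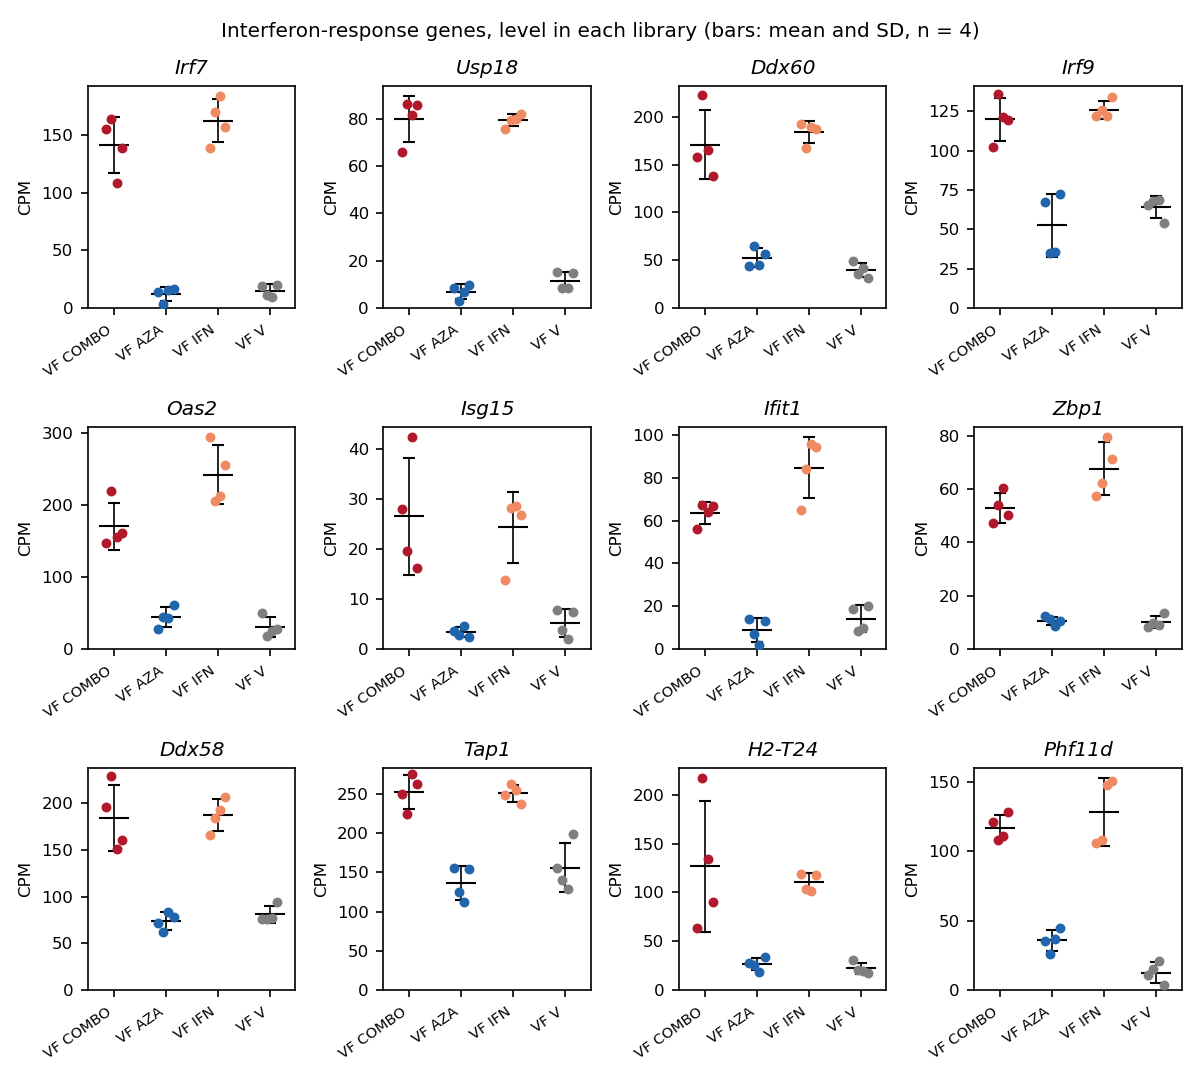
Level in CPM (y axes, from 0) of 12 interferon-response genes in each library of VF COMBO, VF AZA, VF IFN and VF V (x axes), as points with the mean and SD as black bars (n = 4 each). VF COMBO and VF AZA libraries do not overlap in any of the 12 genes, and Irf7 lies above 100 CPM in each VF COMBO library and below 20 CPM in each VF AZA library. Leading rises were named only where the groups did not overlap.

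Most members of the oligoadenylate list rose. Of 9 tested genes of the oligoadenylate synthetase family and RNase L, which destroys RNA once oligoadenylates are made, 7 were higher, 0 lower and 2 did not pass (median 1.67). Oas2 held 147, 219, 155 and 161 CPM in VF COMBO, against 27.8, 45.0, 42.8 and 61.5 CPM in VF AZA (1.95 ± 0.22, adjusted p = 4.93e-07). Oas3 held 161, 156, 87.2 and 107 CPM in VF COMBO, against 33.7, 38.9, 36.9 and 36.8 CPM in VF AZA (1.81 ± 0.21, adjusted p = 7.23e-07). Both genes were higher in every VF COMBO library than in any VF AZA library, and the VF AZA libraries agreed closely in Oas3. The related Oasl1 averaged 36.2 ± 4.79 against 4.36 ± 1.03 CPM (3.05 ± 0.30), and Oasl2 averaged 201 ± 27.5 against 63.1 ± 9.11 CPM (1.67 ± 0.18). Oas1g, whose promoter is shown above, averaged 53.9 ± 17.7 CPM in VF COMBO and 11.9 ± 4.29 CPM in VF AZA, though reads of the near-identical Oas1 copies could have been split by the counting.

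Of 11 Ifit and Ifitm genes, which bind foreign RNA or block viral entry, 2 were higher and 9 did not pass, with a median of 1.16. Ifit1 held 56.3, 67.3, 64.2 and 66.9 CPM in VF COMBO, against 13.9, 7.03, 2.10 and 13.1 CPM in VF AZA (2.81 ± 0.37, adjusted p = 1.34e-05). The VF COMBO libraries were close to each other and all above the VF AZA libraries. Ifit3 held 18.8, 11.9, 5.71 and 17 CPM in VF COMBO and 2.49, 0, 0 and 0.988 CPM in VF AZA (adjusted p = 0.00605), with the near-identical Ifit3b making its level uncertain. Ifit2 had 77.4 to 107 CPM in VF COMBO and 51.8 to 67.4 CPM in VF AZA, without overlap, and did not pass (0.68 ± 0.21, adjusted p = 0.0809).

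Of 31 other antiviral effectors 18 were higher, 0 lower and 13 did not pass (median 0.91). The helicase Ddx60, whose promoter is shown above, held 158, 222, 165 and 138 CPM in VF COMBO, against 43.8, 64.4, 44.7 and 57.1 CPM in VF AZA (1.70 ± 0.16, adjusted p = 1.53e-08). Ifi44 averaged 100.1 ± 25.4 against 22.7 ± 5.93 CPM (2.14 ± 0.19), and the chaperone Rtp4 averaged 56.9 ± 6.86 against 13.6 ± 6.20 CPM (2.06 ± 0.22). Cmpk2, a mitochondrial nucleotide kinase, held 60.5, 72.7, 85.6 and 58.6 CPM in VF COMBO and 17.9, 11.8, 3.98 and 17.3 CPM in VF AZA (2.44 ± 0.28, adjusted p = 7.23e-07). It was the 1 call among 18 genes of azacytidine uptake and activation, a list with a median of 0. Both Ifi27l2a and Mx1 were chosen after their values were seen. Ifi27l2a held 10.8 to 23.2 CPM in VF COMBO and 0 to 0.574 CPM in VF AZA, and the antiviral GTPase Mx1 held 22.6, 28.2, 2.4 and 31.9 CPM in VF COMBO, with library 3 at the level of the VF AZA libraries (2.15 to 3.92 CPM).

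Ubiquitin-like ISG15 and its machinery gave 3 rises among 6 genes (median 0.65). Isg15, whose promoter holds 3 of the matches shown above, held 28.1, 19.8, 42.5 and 16.2 CPM in VF COMBO, against 3.6, 2.81, 4.72 and 2.49 CPM in VF AZA, a mean 7.83-fold higher (2.96 ± 0.38, adjusted p = 6.58e-06). Trim25, a ligase for ISG15 and for RIG-I, averaged 202 ± 7.94 CPM in VF COMBO and 139 ± 39.9 CPM in VF AZA (adjusted p = 0.0436), and its call ended without any 1 of 6 libraries (highest adjusted p = 0.12 without VF AZA library 1). Herc6, the ligase of ISG15 in mice, did not pass (0.61 ± 0.20, adjusted p = 0.103). The large ubiquitin ligase Rnf213 held 1687, 2603, 2174 and 1908 CPM in VF COMBO against 721, 766, 852 and 799 CPM in VF AZA (1.42 ± 0.12, adjusted p = 6.3e-09).

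Sensors of nucleic acids gave 5 rises and 0 falls among 18 genes (median 0.32). Zbp1, a sensor of left-handed nucleic acids, held 47.4, 53.9, 60.4 and 50.2 CPM in VF COMBO, against 12.3, 11.2, 8.80 and 10.5 CPM in VF AZA (2.31 ± 0.21, adjusted p = 1.26e-08). Ddx58, which encodes the RNA sensor RIG-I, averaged 184 ± 35.7 against 74.03 ± 9.50 CPM (1.32 ± 0.14). Adar, which edits adenosines in double-stranded RNA, averaged 297 ± 54.6 against 136 ± 17.5 CPM (1.13 ± 0.12). Each of these 3 genes was higher in all 4 VF COMBO libraries than in any VF AZA library, which the rule for naming leading rises required. Poly(ADP-ribose) polymerases and partners, with the zinc-finger antiviral protein, gave 6 rises among 8 genes (median 0.84), among them Parp14 (262 ± 58.5 against 117 ± 14.1 CPM, 1.16 ± 0.15), Parp9 (119 ± 23.3 against 53.7 ± 5.46 CPM, 1.14 ± 0.16) and Zc3hav1 (227 ± 26.4 against 125 ± 37.4 CPM, 0.86 ± 0.14).

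Interferon-inducible GTPases of the IRG, GBP and GVIN groups gave 4 rises and 15 members that did not pass among 19 (median 0.49). Irgm1, a regulator of the family, held 81.5, 119, 124 and 96.5 CPM in VF COMBO, against 47.8, 51.1, 52.9 and 54.0 CPM in VF AZA (1.03 ± 0.15, adjusted p = 7.18e-05). Gvin1 averaged 728 ± 96.5 against 416 ± 45.7 CPM (0.81 ± 0.17). Igtp held 100.03, 68.0, 68.2 and 70.2 CPM in VF COMBO and 60.2, 40.3, 53.1 and 42.3 CPM in VF AZA, and its call (adjusted p = 0.0428) ended without VF COMBO library 1 or VF AZA library 2 or 4 (highest adjusted p = 0.107). Of 13 Ifi200 genes 3 rose (median 2.96), of 8 Schlafen genes 3 rose (median 0.56) and of 5 genes of the Phf11 cluster 2 rose (median 1.71). These 3 families hold near-identical copies, so the level of a single member is uncertain. Phf11d held 121, 108, 111 and 128 CPM in VF COMBO, against 35.6, 25.8, 37.0 and 44.5 CPM in VF AZA (1.71 ± 0.27, adjusted p = 0.000223). Slfn5 averaged 75.8 ± 30.1 against 33.2 ± 8.16 CPM (1.19 ± 0.24), with VF COMBO library 1 at 120 CPM and the other three at 56.5 to 66.9 CPM. Ifi204 held 3.55 to 10.1 CPM in VF COMBO and 0 to 1.34 CPM in VF AZA.

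Antigen presentation by MHC class I and the immunoproteasome gave 4 rises and 0 falls among 24 genes, with a median of 0.18. The peptide transporter Tap1 held 250, 224, 275 and 263 CPM in VF COMBO, against 155, 125, 112 and 154 CPM in VF AZA (0.89 ± 0.12, adjusted p = 2.67e-05). The class I genes H2-T24 (127 ± 67.1 against 26.5 ± 6.26 CPM, 2.26 ± 0.27), H2-T23 (165 ± 25.6 against 105 ± 9.50 CPM, 0.65 ± 0.15) and H2-Q7 (431 ± 73.5 against 300.4 ± 2.61 CPM, 0.52 ± 0.13) also passed, and belong to a family of near-identical genes. The H2-Q7 call ended without VF COMBO library 2 or 3 or VF AZA library 2 (highest adjusted p = 0.119), and that of H2-T23 without VF COMBO library 2 (adjusted p = 0.0552). B2m, the common light chain, had 693 to 996 CPM in VF COMBO and 526 to 673 CPM in VF AZA and did not pass (adjusted p = 0.28). None of the 16 tested interferon-inducible chemokines passed in either direction with edgeR (median -0.04), 2 had an unadjusted p under 0.05, both higher, and DESeq2 called 1.

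Ly6a, which encodes the sort antigen Sca1, held 63.2, 24.3, 24.5 and 29.3 CPM in VF COMBO, against 13.9, 11.4, 22 and 16.1 CPM in VF AZA (1.15 ± 0.26, adjusted p = 0.0137). Library 1 stood above the other VF COMBO libraries, and the call ended without it (adjusted p = 0.0674) or without VF AZA library 2 (adjusted p = 0.0533). Since Sca1 protein was part of the gate, cells of each group were chosen on it. The related Ly6e averaged 313 ± 78.9 against 172 ± 13.3 CPM (0.86 ± 0.15, adjusted p = 0.000473). Of the other sort antigens, Slamf1, which encodes CD150, had 49.6 to 56.8 CPM in VF COMBO and 46.7 to 75.9 CPM in VF AZA (adjusted p = 0.57). Cd48 averaged 9.87 ± 6.25 against 3.22 ± 2.11 CPM and did not pass (adjusted p = 0.0766).

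The second question was whether interferon acted on these genes differently in the presence of azacytidine. The effect of interferon alone, VF IFN over VF V, uses libraries that the comparison above does not. In it 281 rows were higher (1.27%) and 257 lower (1.16%). Of the 64 interferon-list rises all 64 had the same sign with interferon alone and 58 passed there too, with a median of 1.59 against 1.38 on top of azacytidine. Of the 171 other rises 162 had the same sign and 50 passed. Of the 176 falls 139 had the same sign but 9 passed, with a median of -0.27 against -1.24 on top of azacytidine. Over all 22172 rows, 11384 had a negative sign with interferon alone. The difference of both effects was itself tested, and 19 of 22172 rows passed (0.0857%), 15 with a positive (0.0677%) and 4 with a negative difference (0.018%). None of the 199 interferon-list genes, none of the 235 rises and none of the 176 falls was among the 19. At an unadjusted p under 0.05 the difference was positive in 3 and negative in 34 interferon-list genes, positive in 57 and negative in 21 rises, and positive in 0 and negative in 111 falls, and DESeq2 called 9, 22 and 29 genes of the 3 sets. Rises and falls were chosen on one of the effects compared, which favours a difference in their own direction. For Usp18 the difference was 0.72 ± 0.34 (adjusted p = 0.45), for Irf7 0.07 ± 0.41 (adjusted p = 0.98), for Oas2 -1.06 ± 0.30 (adjusted p = 0.17) and for Phf11d -1.61 ± 0.38 (adjusted p = 0.081). In levels, Usp18 averaged 79.9 ± 9.60 CPM in VF COMBO and 7.04 ± 3.05 CPM in VF AZA, beside 79.3 CPM in VF IFN and 11.7 CPM in VF V.

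Genes with a called difference included Bcl2, an inhibitor of apoptosis, and Itga6, an integrin of stem and progenitor cells. Bcl2 averaged 108 ± 10.5 CPM in VF COMBO and 117 ± 17.9 CPM in VF AZA, beside 138 CPM in VF IFN and 70.7 CPM in VF V, a difference of effects of -1.08 (adjusted p = 0.021). Itga6 averaged 217 ± 17.3 CPM in VF COMBO and 233 ± 19.6 CPM in VF AZA, beside 261 CPM in VF IFN and 154 CPM in VF V (-0.87, adjusted p = 0.042). Both genes thus passed with interferon alone, at 0.96 and 0.76, and neither passed on top of azacytidine, at -0.12 and -0.10. Of the VF V libraries, 1 and 4 held the lowest levels of Bcl2 (64.1 and 62.2 CPM) and Itga6 (144 and 117 CPM). Mitochondrial reads took 1.82% and 0.86% of the counts in VF V libraries 1 and 4, against 9.54% and 11.8% in 2 and 3. The part of these libraries in both differences was not tested. The small nucleolar RNA Snord15a had the positive difference of 3 (adjusted p = 0.021), with 38.6 to 53.6 CPM in VF COMBO and 27.9 to 42.0 CPM in VF AZA, while VF V libraries held 233, 457, 48.4 and 345 CPM. The VF V libraries 1, 2 and 4, which are high in it, are also those in which small and ribosomal RNAs took over 20% of the counts, and their part in the result was not tested. All 3 calls end when single libraries are left out, and the count of 19 was 0 when any of VF IFN 3, VF AZA 2 and VF AZA 3 was left out and 192 when VF V 3 was.

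**Figure D3:**
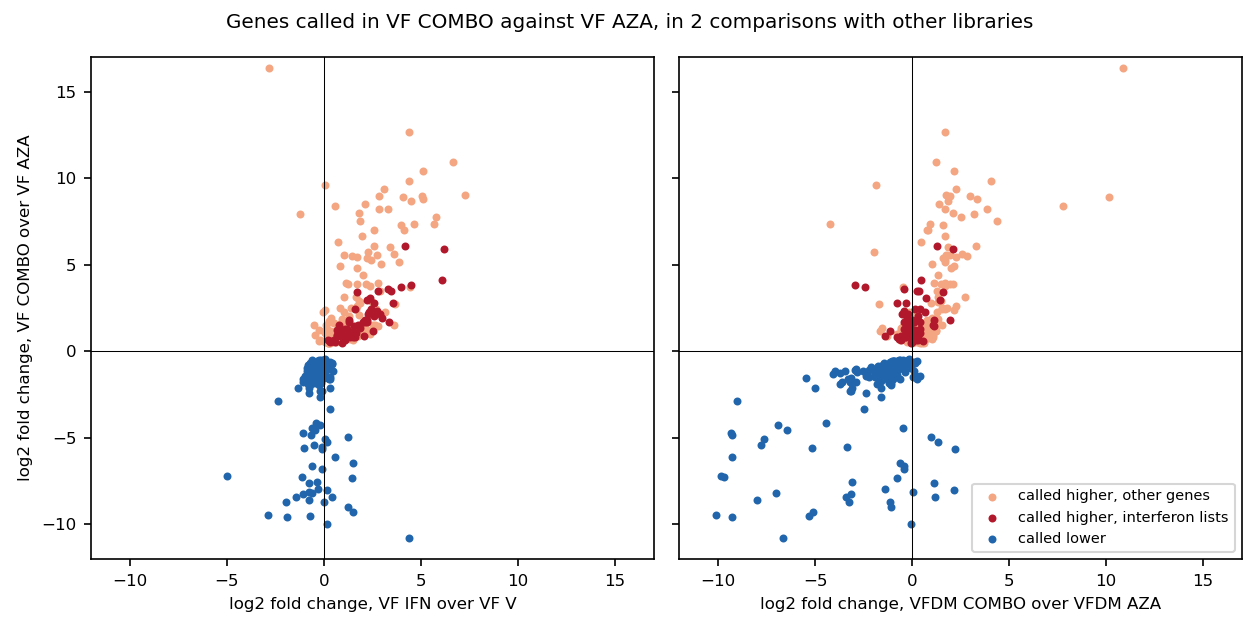
Log2 fold change of VF COMBO over VF AZA (y axes) for the 411 called genes against their log2 fold change in VF IFN over VF V (left x axis) and in VFDM COMBO over VFDM AZA (right x axis), dark red for the 64 interferon-list rises, light red for the 171 other rises and blue for the 176 falls. Interferon-list rises lie right of 0 on the left and around 0 on the right, where 33 of 64 have the same sign, and falls lie mostly left of 0 on the right, where 160 of 176 have the same sign.

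A part of the stem-cell genes fell in VF COMBO. Of 46 tested LT-HSC markers 6 were lower, 1 was higher (Ly6a, above) and 39 did not pass, and the list had a median of -0.52 beside -0.03 over all rows. Their summed level was 6591, 7447, 6046 and 7285 CPM in VF COMBO, against 8417, 8436, 8304 and 8011 CPM in VF AZA, without overlap. Hlf, a transcription factor that marks and maintains stem cells, held 189, 132, 76.2 and 137 CPM in VF COMBO, against 209, 327, 370 and 328 CPM in VF AZA. The libraries did not overlap, and Hlf was 2.31-fold lower by the means (-1.21 ± 0.22, adjusted p = 0.00107). Its call held without any 1 of the 8 libraries, but not in the fit of the 8 libraries alone (-1.19, adjusted p = 0.0945) or without the libraries in which fewer than 20000 rows were detected (-0.97, adjusted p = 0.16).

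The other 5 falls of the list also lost their calls without single libraries. Mecom, a stem-cell transcription factor, held 289, 95.9, 64.3 and 150 CPM in VF COMBO and 307, 263, 402 and 269 CPM in VF AZA, so that VF COMBO library 1 lay within the VF AZA range (-1.05 ± 0.27, adjusted p = 0.0398). Mllt3, a chromatin reader that supports stem-cell maintenance, held 87.4, 134, 29.6 and 64 CPM in VF COMBO and 161, 149, 209 and 121 CPM in VF AZA (-1.02 ± 0.27, adjusted p = 0.039). The adhesion molecule Esam averaged 27.0 ± 8.95 against 58.8 ± 15.2 CPM, the multimerin Mmrn1 averaged 66.6 ± 15.6 against 149 ± 50 CPM, and the lectin receptor Clec1a averaged 10.2 ± 5.25 against 29.5 ± 8.63 CPM. Each of these 5 calls ended without any 1 of 5 libraries, the highest adjusted p being 0.138 for Mecom, 0.154 for Mllt3, 0.115 for Esam, 0.11 for Mmrn1 and 0.13 for Clec1a. The count of 6 falls was 13 without VF COMBO library 1, 2 without VF COMBO library 2, 1 without VF COMBO library 3, 2 without VF AZA library 1 and 1 without VF AZA library 2. It was 0 without the libraries in which fewer than 20000 rows were detected and 0 in the fit of the 8 libraries alone, 2 with limma voom, 2 without the filter on low counts and 9 with DESeq2, beside 23 lower members at an unadjusted p under 0.05. Defining stem-cell markers that did not pass were Procr, with 27.4, 4.64, 0.576 and 10.1 CPM in VF COMBO and 17.8 to 39.2 CPM in VF AZA, and Fgd5, with 43.4, 1.06, 0 and 14 CPM in VF COMBO and 34.2 to 76.5 CPM in VF AZA. In both, libraries 2, 3 and 4 of VF COMBO were below every VF AZA library and library 1 was not.

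Among the falls with the smallest p outside that list, Csgalnact1, an enzyme of chondroitin sulfate synthesis, held 68.7, 40.7, 33.0 and 61.0 CPM in VF COMBO, against 98.9, 96.8, 169 and 102 CPM in VF AZA (-1.20 ± 0.20, adjusted p = 0.000423). Plcl1, a phospholipase C-like protein without catalytic activity, held 4.53, 5.53, 5.33 and 5.31 CPM in VF COMBO, against 26.6, 17, 38.4 and 21.2 CPM in VF AZA, which is 4.99-fold lower (-2.32 ± 0.42, adjusted p = 0.00112). The VF COMBO libraries were nearly equal in Plcl1 and lay below every VF AZA library. The semaphorin Sema4b averaged 41.6 ± 5.79 against 81.4 ± 16.5 CPM (-0.97 ± 0.17). The stress-induced chromatin protein Nupr1 averaged 20.6 ± 10.9 against 60.6 ± 12.9 CPM (-1.55 ± 0.30), and Prkag2, a subunit of the energy sensor AMPK, averaged 61.7 ± 23.7 against 123 ± 3.95 CPM (-1 ± 0.20). Further falls chosen by the same rule were Lrrc49, Rab11fip3, St3gal2, Aldh1l1, Ppp1r9a, Pear1 and Afdn, between -1.47 and -0.89. The 12 genes of this paragraph held their calls without any 1 of the 8 libraries, but 10 of them lost the call in the fit of the 8 libraries alone, 8 with limma voom and all 12 without the libraries in which fewer than 20000 rows were detected.

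**Figure D4:**
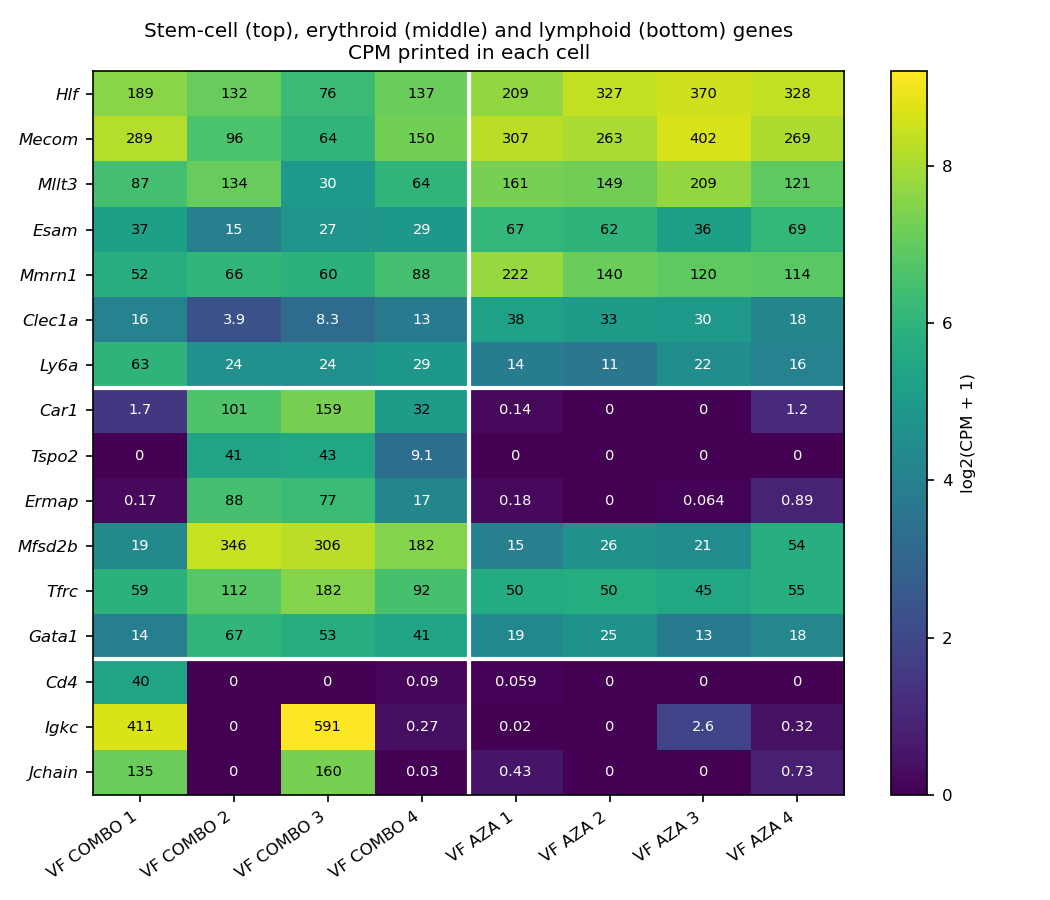
Heat map of log2(CPM + 1) for 7 stem-cell genes, 6 erythroid genes and 3 lymphoid genes (rows) in the 4 VF COMBO and 4 VF AZA libraries (columns), with the CPM written in each cell. VF COMBO libraries 2, 3 and 4 are high in the erythroid rows, where library 1 is near the VF AZA libraries, and libraries 1 and 3 are high in Igkc and Jchain.

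Erythroid genes formed the second large group of rises. Of 36 tested erythroid markers 14 were higher, 0 lower and 22 did not pass, with a median of 2.03. Their summed level was 1080, 2230, 2830 and 1728 CPM in VF COMBO, against 1142, 1156, 1179 and 1205 CPM in VF AZA, so that library 1 lay below the VF AZA libraries and the other three above them. Car1, an early erythroid carbonic anhydrase, held 1.74, 101, 159 and 32.1 CPM in VF COMBO and 0.138, 0, 0 and 1.18 CPM in VF AZA (adjusted p = 0.0036). Ermap, an erythroid membrane protein, held 0.17, 88.3, 77.2 and 17.4 CPM in VF COMBO and at most 0.893 CPM in VF AZA (adjusted p = 0.00328). Tspo2, which is involved in cholesterol handling of red-cell precursors, held 0, 40.8, 43.5 and 9.06 CPM in VF COMBO and 0 CPM in all VF AZA libraries. Its VF COMBO mean of 23.3 CPM was at least 177-fold higher than the 0.132 CPM that 3 counts make in the smallest VF AZA library. With interferon alone, VF IFN over VF V, 3 of the 36 markers passed as higher and 0 as lower (median 0.74). There Car1 held 8.81 to 29 against 0 to 1.15 CPM, Ermap 5.38 to 28.5 against 0.453 to 1.68 CPM, and Tspo2 1.83 to 4.6 against 0 to 0.347 CPM. In Car1, Ermap and Tspo2 VF COMBO libraries 2, 3 and 4 stood apart from library 1, which was at or near the VF AZA level.

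Some more broadly expressed members of the list followed the same split. Mfsd2b, a sphingosine-1-phosphate exporter of red cells and platelets, held 19.4, 346, 306 and 182 CPM in VF COMBO, against 15.3, 25.6, 21.4 and 54.2 CPM in VF AZA (2.87 ± 0.57, adjusted p = 0.00673). The transferrin receptor Tfrc held 59.5, 112, 182 and 92.3 CPM in VF COMBO, against 49.8, 50.5, 45.1 and 55.2 CPM in VF AZA (1.15 ± 0.28, adjusted p = 0.0243). Gata1, the master transcription factor of the lineage, held 14.4, 66.6, 52.8 and 40.8 CPM in VF COMBO and 18.9, 24.6, 13.3 and 18.3 CPM in VF AZA (1.22 ± 0.33, adjusted p = 0.0461). The calls of Tfrc and Gata1 ended without single libraries (highest adjusted p = 0.133 and 0.148). Klf1, a defining erythroid factor chosen after its values were seen, held 0, 35.4, 41.8 and 22.8 CPM in VF COMBO and 1.80, 7.56, 0.765 and 7.24 CPM in VF AZA, and did not pass (adjusted p = 0.14). Other members did not follow the split. Car2 held 282, 277, 338 and 362 CPM in VF COMBO, against 367, 276, 277 and 284 CPM in VF AZA. The globin gene Hba-a1 held 17.3, 7.98, 135 and 20.2 CPM in VF COMBO, against 1.2, 10.2, 128 and 29.2 CPM in VF AZA. The count of 14 was 19 without VF COMBO library 1, 6 without library 2 or library 3, 8 without VF AZA library 2 and 7 without VF AZA library 3. It was 2 without the libraries in which fewer than 20000 rows were detected, and 0 in the fit of the 8 libraries alone and with limma voom, beside 20 higher members at an unadjusted p under 0.05 and 18 called by DESeq2. Of 17 genes of haem synthesis and iron uptake 1 passed (Tfrc), with a median of 0.51.

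Megakaryocyte markers gave 4 rises and 24 members that did not pass among 28, with a median of 0.70. Their summed level was 1230, 1885, 2258 and 2933 CPM in VF COMBO and 1923, 1490, 1175 and 1466 CPM in VF AZA, and the groups overlapped. The rises were the thrombin receptor subunit F2rl2 (17.1 ± 8.80 against 3.57 ± 2.89 CPM), the platelet protein Plek (184 ± 106 against 63.3 ± 23.9 CPM), the glycoprotein Gp5 (22.3 ± 10.8 against 7.19 ± 3.82 CPM) and the small GTPase Rap1b (338 ± 107 against 212 ± 49.8 CPM). Each lost its call when single libraries were left out, and 0 of the 4 calls was left without VF COMBO library 3. The count of 4 was also 0 with limma voom, in the fit of the 8 libraries alone and without the libraries in which fewer than 20000 rows were detected, and it was 5 with DESeq2, beside 9 higher members at an unadjusted p under 0.05. All 4 genes were also higher in VF IFN than in VF V by their estimates, of which those of F2rl2, Plek and Rap1b passed.

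Markers of other cell types were set beside these groups. Of 17 tested T and NK cell markers 1 passed, Cd4, with 40.3, 0, 0 and 0.09 CPM in VF COMBO and 0.0593, 0, 0 and 0 CPM in VF AZA. Their summed level was 345 CPM in VF COMBO library 1, 22.9 to 32.2 CPM in the other three, and 13.8 to 31.7 CPM in VF AZA, and the Cd4 call ended without library 1 (adjusted p = 0.818). Of 16 tested B cell markers 2 passed, Igkc and Jchain, which encode antibody chains. Igkc held 411, 0, 591 and 0.27 CPM in VF COMBO and at most 2.61 CPM in VF AZA, and the summed markers were 575, 6.2, 791 and 18.8 CPM in VF COMBO against 0.3 to 7.0 CPM in VF AZA. The calls of Igkc and Jchain ended without VF COMBO library 3 or any 1 of 3 VF AZA libraries (highest adjusted p = 0.121 and 0.0785). Of 10 mast cell, basophil and eosinophil markers Ms4a2 passed (9.84 to 26.1 CPM in VF COMBO libraries 2 to 4, 0 in library 1 and at most 0.255 CPM in VF AZA), and 1 of 14 dendritic cell markers did. Markers of neutrophils (21 tested), of monocytes and macrophages (25) and of stroma and endothelium (13) gave 0 calls in either direction with edgeR, with 1, 4 and 2 members at an unadjusted p under 0.05 and 1, 1 and 0 called by DESeq2. The part of these cells in the interferon, erythroid, megakaryocyte and stem-cell values was not tested.

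Proliferation and growth lists showed no calls. None of 43 S-phase genes (median 0.05), 38 genes of G2 and mitosis (0.04), 58 cytosolic ribosomal proteins (0.13), 28 ribosome biogenesis genes (0.15) and 31 genes of oxidative phosphorylation (0.10) passed in either direction with edgeR. Likewise 0 of 21 JAK2-STAT5 targets (median -0.39), 0 of 20 genes of the DNA methylation machinery (-0.01), 0 of 26 p53 targets (0.07) and 0 of 16 members of the BCL2 family (0.29) passed. At an unadjusted p under 0.05 these 9 lists held 3, 2, 3, 3, 0, 5, 5, 7 and 2 members in the order named, and DESeq2 called 1 ribosomal protein, 2 ribosome biogenesis genes, 2 p53 targets and 1 member of the BCL2 family. In the list of quiescence genes and cyclin-dependent kinases and their inhibitors 2 of 19 were higher. Cdk6, the kinase that lets stem cells leave dormancy, held 1035, 1906, 1517 and 1135 CPM in VF COMBO, against 422, 849, 921 and 913 CPM in VF AZA (0.85 ± 0.22, adjusted p = 0.0428). The antiproliferative gene Btg1 averaged 60.6 ± 18.6 against 32.7 ± 4.19 CPM (adjusted p = 0.0363). Both calls ended without any 1 of 4 libraries (highest adjusted p = 0.141 and 0.0891). Of 18 genes of lymphoid-primed and multipotent progenitors 2 were higher, Plac8 (164 ± 52.5 against 57.1 ± 18.6 CPM) and the transcription factor Ikzf1 (259 ± 44.6 against 163 ± 19.5 CPM, 0.67 ± 0.14, adjusted p = 0.00672). In the TGF-beta pathway, which holds stem cells dormant, the ligand Tgfb1 rose (348 ± 46.9 against 214 ± 28.8 CPM, adjusted p = 0.00903) and its latency partner Ltbp3 fell (56.2 ± 15.2 against 107 ± 19.3 CPM, adjusted p = 0.0152, lost when VF COMBO library 2 or 3 or VF AZA library 3 was left out), while the other 19 of 21 genes did not pass.

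The third question was whether Dnmt3a-intact cells differed from Dnmt3a-deleted cells in what interferon added to azacytidine. The libraries labelled VFDM AZA held interferon genes at the level of interferon-treated mice. The summed level of the 64 interferon-list rises was 7958 to 9224 CPM in VF COMBO, 3836 to 4015 CPM in VF AZA, 9004 to 9820 CPM in VF IFN and 3588 to 3935 CPM in VF V. It was 7173 to 10240 CPM in VFDM COMBO, 8150 to 9493 CPM in the libraries labelled VFDM AZA, 9132 to 10590 CPM in VFDM IFN and 3705 to 4127 CPM in VFDM V. All 4 libraries labelled VFDM AZA lay above every vehicle library and above every VF AZA library, and no value of the contrast can be had without them. Whether the treatment label of these 4 libraries is wrong, or these levels arose under the labelled treatment, was not tested and cannot be told apart here. Whether the VFDM contrast and the genotype differences below measure interferon added to azacytidine cannot be told from these data either.

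**Figure D5:**
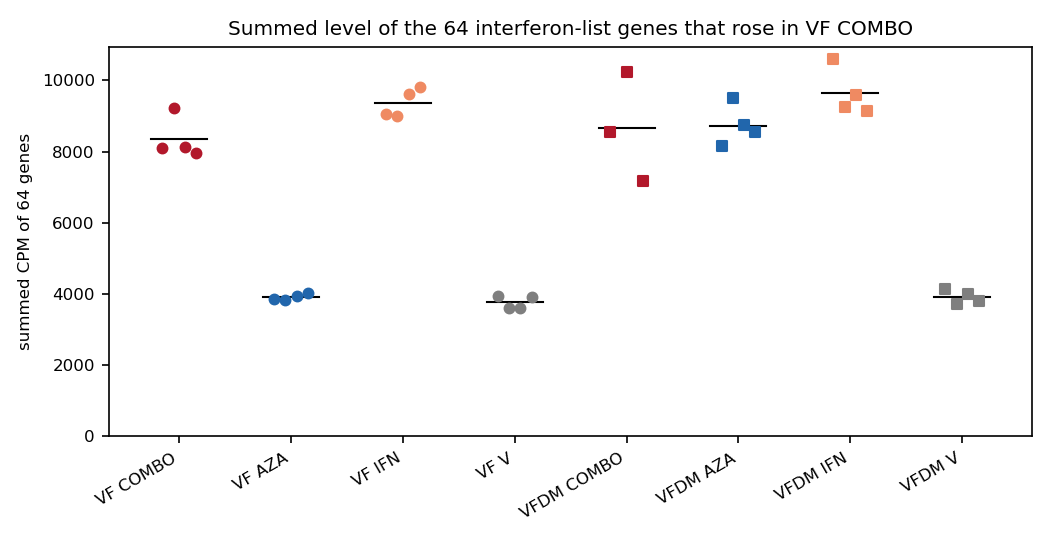
Summed CPM of the 64 interferon-list genes called higher in VF COMBO against VF AZA (y axis, from 0) in each of the 31 libraries by group (x axis), with circles for VF, squares for VFDM and a bar at the mean. VF AZA libraries sit at 3836 to 4015 CPM beside the vehicle libraries, and the libraries labelled VFDM AZA sit at 8150 to 9493 CPM beside the interferon-treated ones.

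Against those libraries 431 rows were higher in VFDM COMBO (1.94%) and 1302 lower (5.87%). The difference between genotypes passed in 371 rows (1.67%), 286 with the more positive change in VF (1.29%) and 85 with the more positive change in VFDM (0.383%). Of the 64 interferon-list rises 6 were higher and 7 lower in VFDM COMBO than in the libraries labelled VFDM AZA, with a median of 0.01, and the genotype difference passed in 43. These 64 were chosen on the VF effect, which favours a positive genotype difference. Usp18 averaged 71.1 CPM in VFDM COMBO and 55.4 CPM in the libraries labelled VFDM AZA (0.36, adjusted p = 0.45), beside 79.9 and 7.04 CPM in VF COMBO and VF AZA, a difference of 3.14 (adjusted p = 3.5e-06). Irf7 averaged 168 and 141 CPM in VFDM and gave a difference of 3.24 (adjusted p = 7.8e-05). In both genes the VFDM COMBO level was near that of VF COMBO and the libraries labelled VFDM AZA were far above VF AZA.

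The falls behaved otherwise. Of the 176 genes lower in VF COMBO, 160 had the same sign in VFDM, where 103 passed as lower and 0 as higher, with a median of -1.18 against -1.24 in VF. Over all 22172 rows, 11761 had a negative sign in VFDM. Hlf averaged 35.4 CPM in VFDM COMBO and 255 CPM in the libraries labelled VFDM AZA, a change of -2.85 (adjusted p = 9.1e-09) beside -1.21 in VF, and the genotype difference of 1.64 passed (adjusted p = 0.0032). Mecom averaged 34.4 and 260 CPM in VFDM (-2.92) and Esam averaged 4.23 and 47.2 CPM (-3.46), with genotype differences of 1.87 and 2.34 (adjusted p = 0.012 and 0.0018). Csgalnact1 (-1.53) and Plcl1 (-3.21) also fell in VFDM, and their genotype differences of 0.34 and 0.90 did not pass. Of the 171 other rises 39 passed as higher in VFDM and 5 as lower. Among the negative genotype differences with the smallest p were those of Srl, Tent5c, Bpgm, Slc25a37 and Ube2o. In all but Srl, VFDM COMBO library 3 held the highest level of its group, at 377 CPM in Slc25a37 and 619 CPM in Ube2o. Tent5c averaged 8.78 ± 5.24 CPM in VF COMBO and 7.10 ± 1.85 CPM in VF AZA, beside 44.2, 809 and 125 CPM in VFDM COMBO and 6.34 to 9.95 CPM in the libraries labelled VFDM AZA (difference -4.94, adjusted p = 0.0013). Bpgm, which makes the ligand that lowers the oxygen affinity of haemoglobin, averaged 21.9 ± 9.17 and 18.9 ± 8.80 CPM in VF COMBO and VF AZA, beside 35.1, 472 and 99.4 CPM in VFDM COMBO and 18.8 to 26.5 CPM in the libraries labelled VFDM AZA (-3.03, adjusted p = 0.014, and 0.135 without VFDM COMBO library 3).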

How the data were processed

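Of 31 RNA-seq libraries of LT-HSCs, 8 are compared here. The deposited table holds raw read counts per gene made by the authors, with mm10 named per the labels, and was used as deposited (55492 rows). Per the submitters' processing notes the tools were STAR 2.7.10a, featureCounts, FastQC 0.11.5 and R 4.3.0. Which annotation and strand setting were used, and how reads with several positions were counted, was not given in the sources used here. Overlapping, antisense and near-identical genes are uncertain for that reason. Symbols and positions were taken from GENCODE vM21, and promoter sequences from RefSeq (GRCm38.p6).

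With edgeR 4.0.16 in R 4.3.3, TMM normalisation used all 31 libraries, filterByExpr (minimum count 10, minimum total 15) kept 22172 rows, and a robust quasi-likelihood model with 1 mean per group was fitted to all libraries. Tests were two-sided with Benjamini-Hochberg adjustment over the 22172 rows, and the SE is the log2 fold change divided by the square root of F. CPM are per TMM-scaled library. Counting error did not account for the replicate spread, the chi-square per degree of freedom being at least 42.5. A count of 0 allows up to 3 counts, 0.0593 to 0.144 CPM in these libraries, which covers counting error only.

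Named genes were up to 15 rises and 15 falls with the smallest p among called genes with a mean log2 CPM of at least 2, an ordinary symbol and no overlap between groups, up to 4 members per list, and up to 5 per direction for the differences between effects. Klf1, Car2, Hba-a1, Procr, Fgd5, Slamf1, Ifnar1, Ifnar2, B2m, Oas1g, Mx1 and Ifi27l2a were named after their values were seen. Some genes are not reported here. The members, the gene lists and the tests were chosen with earlier results of these data known, so list counts are descriptions, and no set test was run. Alternatives were RLE factors, no filter, DESeq2 1.42.0, limma 3.58.1 voom with quality weights, a replicate block, the compared groups alone, protein-coding rows, each library left out in turn and, added after the data were seen, no library with fewer than 20000 detected rows. Counts of this comparison (22172 genes) were also simulated from the average level and fitted dispersion of each row. Changes were put into 200 rows with a mean log2 CPM of at least 2. Of these, 39.4% of changes of 1 log2 unit and 75.5% of 2 units were called, and 4.1% of calls were false. Outlying and low-detection libraries were not simulated, so these shares need not hold for the calls above.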

Additional observations from a re-analysis of the deposited data

Results flagged for a closer look

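In 16 of 220 groups of 4 libraries examined 1 library lay far from the other 3. For independent, normally distributed values chance alone flags about 1 in 20 such groups, and the rate for these levels was not computed. In VF COMBO library 1 these were Igtp at 100.03 CPM, Slfn5 at 120.4 CPM, Ly6a at 63.2 CPM, Cd4 at 40.3 CPM and the summed T and NK cell markers at 344.7 CPM, each above the other VF COMBO libraries. In VF AZA library 3 they were Oasl1 at 2.84 CPM and B2m at 525.6 CPM, below the others, and Zc3hav1 at 181.2 CPM, Csgalnact1 at 168.7 CPM and Igkc at 2.61 CPM, above them. In VF AZA library 4 Car1 at 1.18 CPM, Cd48 at 6.38 CPM and Ms4a2 at 0.255 CPM were above the others. In VF AZA library 1 Cdk6 at 422.3 CPM was below the others, and Cd4 at 0.0593 CPM was above libraries at 0, within the counting limit. Oasl2 at 49.5 CPM was low in VF AZA library 2.

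Effects that differed between genotypes by the interaction term (VF minus VFDM, log2) were those of Usp18 (3.14), Irf7 (3.24), Ifi44 (2.67), Zbp1 (2.71), Ddx58 (1.71), Ly6a (2.81), Hlf (1.64) and Cadps2 (3.21), which were positive, and those of Srl (-3.06), Tent5c (-4.94), Bpgm (-3.03), Slc25a37 (-1.8) and Ube2o (-2.83), which were negative. Without VFDM COMBO library 3 the differences of Bpgm (-1.49, adjusted p = 0.135), Slc25a37 (-0.73, adjusted p = 0.219) and Ube2o (-1.22, adjusted p = 0.156) did not pass with edgeR, and without VFDM COMBO library 4 that of Srl did not (-2.36, adjusted p = 0.0734). Whether the libraries labelled VFDM AZA carry the right treatment label cannot be told from these data. These genotype differences may therefore not measure interferon added to azacytidine. Cadps2 averaged 26.7 ± 14.4 CPM in VF COMBO and 37.7 ± 2.63 CPM in VF AZA, beside 3.42 CPM in VFDM COMBO and 44.3 CPM in the libraries labelled VFDM AZA. Effects of interferon that differed with and without azacytidine were those of Snord15a (3.0), Bcl2 (-1.08) and Itga6 (-0.87).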

How the results depend on the processing

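The 411 rows called in VF COMBO against VF AZA were 418 with RLE factors, 307 without the filter and 442 on protein-coding rows, but 49 in a fit of the 8 libraries alone, 102 with limma voom, 1190 with DESeq2 and 45 without libraries with fewer than 20000 detected rows. Leaving out 1 library gave 218 to 1017. The 19 rows of the difference between the interferon effects with and without azacytidine were 11 without the filter, 0 on protein-coding rows, 0 in the compared groups alone, 0 with limma voom, 2 without the low-detection libraries and 239 with DESeq2, and 0 to 192 with 1 library left out. The 371 rows of the genotype difference were 50 in the compared groups alone, 106 with limma voom and 918 with DESeq2, and 266 to 512 with 1 library left out. With a replicate block the 3 counts were 297, 2 and 231. The labels give the numbers 1 to 4 in each group without saying that they mark a shared animal or batch. Same-numbered VF COMBO and VF AZA libraries deviated together with correlations of -0.01, 0.033, 0.091 and 0.165. Such correlations cannot show whether these libraries shared an animal or a batch. The cause of the shifts in the counts was not tested. Of 85 called genes named in the text 20 kept their call under every alternative run, 61 lost it without the low-detection libraries and 50 of 81 in the 8 libraries alone. A lone sample left in a group there is assumed to vary like the other groups. Values with the opposite sign were those of Jchain with limma voom (-0.4) and without the low-detection libraries (-4.13) and of Ifnar2 without them (0.04), and none passed. Levels below about 0.1 CPM are within the counting limit of these libraries.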
